A study of Homo sapiens and Mus musculus with 15 samples.

Results

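The drug-naive state of 2 myeloma lines was compared: RPMI-8226, called 8226 here, a line from a human plasma cell myeloma, and 5TGM1, a mouse line that arose by serial passage of a plasma cell myeloma that had formed spontaneously in C57Bl/KaLwRij mice. The members of the comparison were the gene symbols that the count tables of both lines share when letter case is ignored. There were 15494 such symbols, of 23346 genes in the 8226 tables and 23329 in the 5TGM1 tables. Each naive group had 3 libraries, which makes 6 of the 15 libraries of the series; the other 9 came from proteasome inhibitor-resistant derivatives and were not used. Both lines were grown in IMDM with 20% fetal bovine serum and had never been kept in drug, and RNA was taken less than 1 month after the cells were thawed.

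Each species was represented by a single line, so line, species, genome build, gene annotation and mapping cannot be told apart in any value below. A shared symbol was taken as the same gene, and orthology was not tested. Nothing in the labels says that the 3 libraries of a group came from separate cultures, so a p-value reflects how far these 3 libraries vary, and that variation may be technical. In bulk RNA, fewer cells expressing a gene and less of its RNA per cell cannot be told apart.

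Plasma cells are the end stage of the B cell lineage. They switch off most of the B cell program under PRDM1 (Blimp-1) and IRF4, and they enlarge the endoplasmic reticulum (ER) under XBP1 so that large amounts of antibody can be folded, checked and exported. The load of misfolded protein that this creates is cleared through the proteasome, which is why proteasome inhibitors such as bortezomib are used against myeloma. Human myelomas fall into classes by the oncogene that drives them, such as MAF or a cyclin D gene, and RPMI-8226 is known as a line with a MAF rearrangement.

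Reads on genes numbered 39032700 to 46874800 per 8226 library and 49097500 to 72288700 per 5TGM1 library, and matched symbols took 92.8% to 93.1% of them. Levels are given as CPM, the reads of a gene per 1e+06 reads on matched genes. At this depth the limit that a count of 0 allows, 3 counts, corresponds to 0.0450 to 0.0829 CPM per library and covers counting error only. Within a library each gene was also ranked by its CPM, as a percentile of all 15494 matched genes. Ranks count reads and so favour long transcripts. Across matched genes, ranks of libraries from different lines had a Spearman rho of 0.776 to 0.780, against 0.988 to 0.993 between libraries of 1 line. These are descriptions across genes, which are not independent replicates.

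The lines shared many of their most abundant transcripts, and many other genes differed widely. Of the matched genes, 7921 averaged at least 1 CPM in both lines, 1739 in 8226 alone, 898 in 5TGM1 alone and 4936 in neither. In the quasi-likelihood F test of edgeR, 10558 of 11498 tested genes (91.8%) passed a Benjamini-Hochberg adjusted p below 0.05. Of these, 5358 (46.6% of tested genes) were higher in 8226 and 5200 (45.2%) were higher in 5TGM1. Since nearly every gene passed, a gene is described below as 4-fold different where it also differed by at least 2 on the log2 scale. That held for 2614 genes (22.7%) higher in 8226 and 1911 genes (16.6%) higher in 5TGM1, together 39.4% of those tested. At the other end, 4627 genes (40.2%) lay within 2-fold of each other in the lines, and the median log2 difference, 8226 minus 5TGM1 here and throughout, was 0.03. For 91.9% of tested genes every library of 1 line was above every library of the other, so a lack of overlap is the background state.

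**Figure D1:**
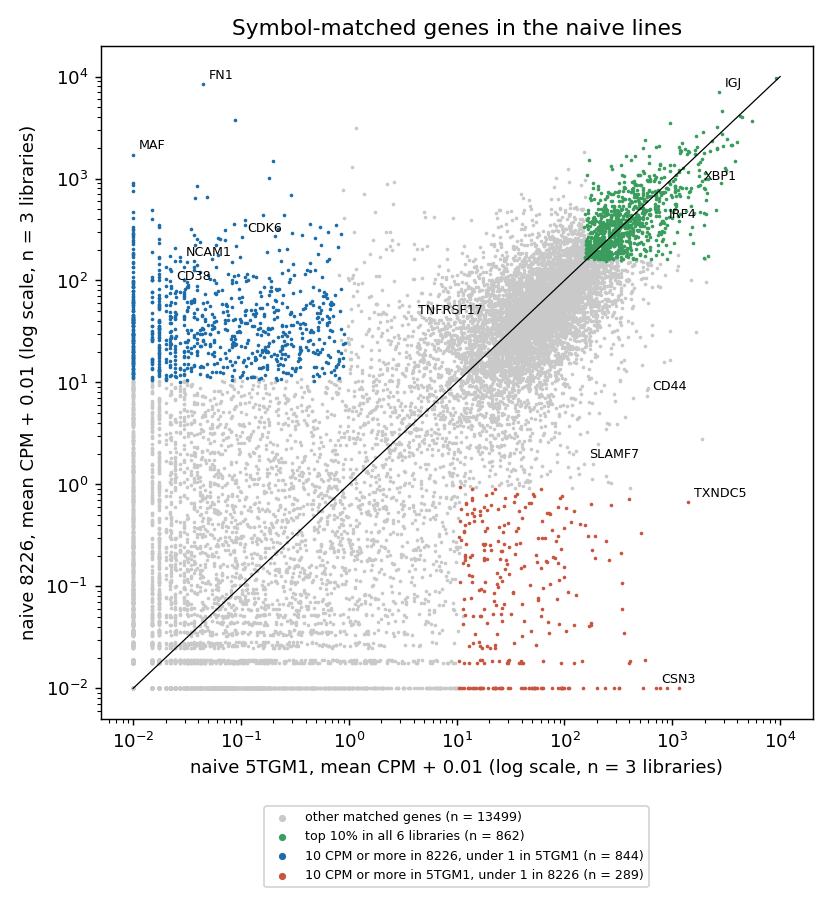
Mean CPM + 0.01 of each matched gene in naive 5TGM1 (horizontal, log scale) and naive 8226 (vertical, log scale), 3 libraries each, with the line of equality. The 862 genes in the top 10% of all 6 libraries lie along that line at the upper right, the 844 genes particular to 8226 fill the upper left and the 289 particular to 5TGM1 the lower right.

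A core of 862 genes high in both lines stood in the top 10% by CPM in each of the 6 libraries. They made up 59.8% of the 1441 genes in the top 10% of every 8226 library and 58.3% of the 1479 in the top 10% of every 5TGM1 library. Of the 862, 687 (79.7%) lay within 2-fold between the lines, and 23 differed 4-fold. A gene had to rank high in every library to enter this set. The rule itself thus left out many wide gaps, and the 79.7% is no independent sign of likeness. By mean rank the first 15 included EEF1A1, RPL4, HSP90AB1, EEF2, PKM2, IGJ, HSP90B1, B2M, RPLP1, PABPC1, NCL, RPLP0, RPL8 and RPS3. This set joins the machinery of translation (elongation factors, ribosomal proteins, the poly(A)-binding protein) to 2 HSP90 chaperones, a glycolytic enzyme, the light chain of MHC class I and the joining chain of secreted antibody. EEF1A1, which brings aminoacyl-tRNA to the ribosome, stood at 9042, 10377 and 9613 CPM in 8226 and 8834, 9328 and 9408 CPM in 5TGM1, and the groups overlapped (log2 difference 0.07, adjusted p = 0.333). IGJ, the joining chain of polymeric antibody, stood at 6252, 7579 and 7224 CPM in 8226 and 2754, 2658 and 2777 CPM in 5TGM1. Every 8226 library was above every 5TGM1 library for IGJ (log2 difference 1.36 ± 0.078, adjusted p = 1.8e-10). Ranked by CPM per kb of the human transcript, an alternative added after the data had been seen, 945 genes stood in the top 10% throughout.

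Genes of the unfolded protein response, which senses misfolded protein in the ER and raises chaperones, ranked high in both lines. Whether the response itself was active was not tested. Of the 36 tested genes of this list, 19 stood in the top 10% of all 6 libraries, as did 862 of all 15494 matched genes. The median member ranked at percentile 93.2 in 8226 and 97.2 in 5TGM1. Most members were higher in 5TGM1, with a median log2 difference of -0.76. Of the 36, 25 passed in that direction and 5 in the other, where all tested genes divided 45.2% to 46.6%. The differences were mostly moderate, with 5 members 4-fold higher in 5TGM1 and 1 4-fold higher in 8226 (16.7% of the list, against 39.4% of all tested genes).

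HSPA5 (BiP), HSP90B1 (GRP94) and CALR (calreticulin) are the chief chaperones of the ER lumen, and XBP1 is the transcription factor that raises them when the sensor IRE1 splices its mRNA. ATF6, the other arm that raises ER chaperones, acts through the ER stress response element, here searched as CCAAT, any 9 bases and CCACG, on both strands; no other motif was searched. Their upstream sequences are shown because these 4 genes carry the shared ER program and each holds the element. The 250 bases before each start site follow, 5′ to 3′ on the gene's strand, from RefSeq on GRCh38.p14, with the element in capitals (a match on the opposite strand starts with CGTGG and ends with ATTGG). HSPA5 lies at chr9:125241344-125241593 on the minus strand, HSP90B1 at chr12:103930160-103930409 on the plus strand, CALR at chr19:12938359-12938608 on the plus strand and XBP1, at the first of its 2 listed promoters, at chr22:28800570-28800819 on the minus strand.
HSPA5: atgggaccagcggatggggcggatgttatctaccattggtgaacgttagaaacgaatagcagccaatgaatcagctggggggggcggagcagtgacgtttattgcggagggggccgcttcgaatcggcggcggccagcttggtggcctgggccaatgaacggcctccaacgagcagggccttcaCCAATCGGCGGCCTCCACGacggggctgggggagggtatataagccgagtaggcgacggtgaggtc
HSP90B1: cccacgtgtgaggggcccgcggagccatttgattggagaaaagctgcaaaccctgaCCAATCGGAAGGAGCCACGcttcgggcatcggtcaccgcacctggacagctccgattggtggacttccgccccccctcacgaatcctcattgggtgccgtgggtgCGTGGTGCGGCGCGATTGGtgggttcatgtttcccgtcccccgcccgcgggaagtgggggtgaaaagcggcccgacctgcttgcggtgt
CALR: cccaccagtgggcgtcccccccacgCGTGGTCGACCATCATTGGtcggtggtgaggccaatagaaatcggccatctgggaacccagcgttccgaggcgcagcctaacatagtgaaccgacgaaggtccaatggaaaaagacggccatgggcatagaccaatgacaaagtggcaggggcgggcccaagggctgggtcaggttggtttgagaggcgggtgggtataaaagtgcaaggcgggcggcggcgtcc
XBP1: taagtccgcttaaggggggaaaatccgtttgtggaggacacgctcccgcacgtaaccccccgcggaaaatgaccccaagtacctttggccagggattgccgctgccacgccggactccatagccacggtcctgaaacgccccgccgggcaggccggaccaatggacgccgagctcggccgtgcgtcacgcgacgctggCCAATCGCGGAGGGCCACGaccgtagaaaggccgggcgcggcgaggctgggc
HSP90B1 held the element in 2 places, once on each strand. The second listed XBP1 promoter, not shown, held no match. Of the 40 promoters listed for genes of the unfolded protein response list, 9 held a match (22.5%). That compares with 26 of all 35116 promoters (0.0740%) and 9 of 984 promoters of genes in the top 10% of both lines (0.915%). By gene, 8 of 31 held a match (25.8%), against 25 of 27305 (0.0916%). The list has 36 genes, and those without a promoter under their symbol were missed. ERO1LB was 1 of them, as it is listed as ERO1B, which held a match. The element was chosen for its known role at such genes, so its share among them is no independent support. A match is a description of these letters in the human sequence and not a measured binding site, and mouse promoters were not analysed here.

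In the libraries, HSPA5 stood at 1936, 2042 and 1888 CPM in 8226 and 2548, 2587 and 2605 CPM in 5TGM1, a modest excess in 5TGM1 with no overlap (log2 difference -0.40 ± 0.062). HSP90B1 stood at 2294, 2441 and 2091 CPM in 8226 and 4027, 3985 and 3934 CPM in 5TGM1, again lower in each 8226 library (log2 difference -0.81 ± 0.07). CALR stood at 1684, 1773 and 1867 CPM in 8226 and 1907, 1964 and 1978 CPM in 5TGM1. The CALR groups came close without overlapping, and the difference missed the threshold (log2 difference -0.14, adjusted p = 0.0552); it passed when the third 8226 library was left out (log2 difference -0.17, adjusted p = 0.0251). SERP1, which stabilises new membrane proteins during ER stress, averaged 1126 ± 43.9 CPM in 8226 and 1995 ± 12.5 CPM in 5TGM1 (SD, n = 3 each). Calnexin, encoded by CANX, went the other way at 1899.5 ± 22.2 against 1183 ± 66.1 CPM.

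The members with the widest gaps were of narrower roles. ERO1LB, an oxidase that recharges protein disulfide isomerases in secretory cells, stood at 4.72, 5.34 and 4.73 CPM in 8226 and 89.2, 90.2 and 84.8 CPM in 5TGM1, a 17.9-fold excess in 5TGM1. SDF2L1, a BiP cofactor, stood at 15.6 CPM in 8226 and 114 CPM in 5TGM1 on average. DERL3, a channel component of ER-associated degradation, showed the reverse at 48, 44.3 and 47 CPM in 8226 and 2.01, 1.94 and 1.60 CPM in 5TGM1 (log2 difference 4.64 ± 0.097). TXNDC5, a plasma cell disulfide isomerase, stood at 0.980, 0.411 and 0.580 CPM in 8226 and 1406, 1429.9 and 1377 CPM in 5TGM1. The human annotation holds a read-through entry, MUTED-TXNDC5, that spans TXNDC5, and reads on overlapping genes are not counted for either. How far that sets the low 8226 value was not tested.

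**Figure D2:**
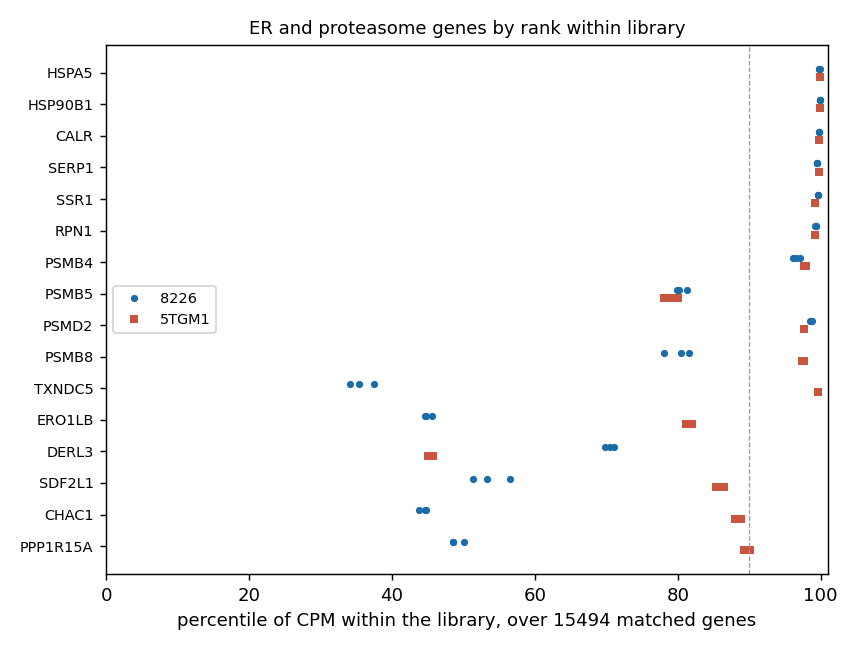
Percentile of CPM within each library, over all matched genes, for ER, proteasome and stress genes, with 8226 as circles and 5TGM1 as squares (3 libraries each); the dashed line marks the top 10%. HSPA5, HSP90B1, CALR, SERP1, SSR1 and RPN1 lie at the right edge in both lines, while TXNDC5, ERO1LB, SDF2L1, CHAC1 and PPP1R15A sit far apart and DERL3 is the one of the wide gaps with 8226 to the right.

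Translocation into the ER and export from it were the most evenly matched of the large groups. Of 44 tested genes, 37 (84.1%) lay within 2-fold, against 40.2% of all tested genes and 79.7% of the core of 862, and 27 belonged to that core. 17 were called higher in 8226 and 21 higher in 5TGM1, where all tested genes divided 46.6% to 45.2%. RPN1, a subunit of the oligosaccharyltransferase that glycosylates new chains, stood at 928, 864 and 982 CPM in 8226 and 905, 930.0 and 936 CPM in 5TGM1, with overlapping libraries (log2 difference 0.00, adjusted p = 0.984). SSR1, of the translocon-associated complex, averaged 1363 ± 41.5 and 959 ± 36.7 CPM. The 3 members that differed 4-fold were all higher in 8226. These were SEC61G, the gamma subunit of the translocation channel (202 against 2.20 CPM), TMED2, a cargo receptor (453 against 58.1 CPM), and SRP9, of the signal recognition particle (359 against 79.7 CPM).

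The 20S core of the proteasome had the smallest median size of line difference, taken without sign, of the gene lists examined, markers of other cell types left aside (0.22 on the log2 scale, against 1.39 for all tested genes). All 14 tested genes of the 20S core were expressed at 10 CPM or more in both lines, and none differed 4-fold. Of the 14, 11 (78.6%) lay within 2-fold, near the 79.7% of the 862 genes high in both lines, to which 10 belonged. The test called 1 higher in 8226 and 7 higher in 5TGM1, where all tested genes divided 46.6% to 45.2%. PSMB5, the chymotrypsin-like subunit that bortezomib and carfilzomib bind, stood at 80.5, 78.2 and 84.6 CPM in 8226 and 75.8, 74 and 79.6 CPM in 5TGM1. These libraries overlapped, and the log2 difference was 0.08 ± 0.062 (adjusted p = 0.203). PSMB4, a structural beta subunit, averaged 355 ± 32.4 CPM in 8226 and 458 ± 18.6 CPM in 5TGM1. In the 19S regulator, 18 of 23 genes lay within 2-fold. The exceptions at 4-fold were UCHL5, a deubiquitinase, at 395 against 87.6 CPM and, in the other direction, PSMD8 (87.9 against 732), PSMC1 (59.7 against 295) and PSMC6 (78.3 against 337). NFE2L1, the transcription factor that restores proteasome genes after inhibition, averaged 214 ± 10.7 CPM in 8226 and 409 ± 17.6 CPM in 5TGM1 (log2 difference -0.93). SQSTM1 (p62), a receptor that carries ubiquitinated cargo to autophagy, averaged 412 and 998 CPM.

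The immunoproteasome replaces the catalytic subunits of the constitutive core and changes the peptides made for antigen presentation. All 5 tested genes had a lower mean in 8226, and 4 of them passed, as did 91.8% of all tested genes in either direction. PSMB8, its chymotrypsin-like subunit, stood at 70.9, 86.4 and 81.1 CPM in 8226 and 428, 414 and 428 CPM in 5TGM1, a 5.33-fold gap without overlap (adjusted p = 9.3e-14). PSMB9 averaged 28.7 ± 3.16 and 92 ± 3.77 CPM, and PSME1, of the PA28 cap, averaged 179.9 ± 13 and 412 ± 8.46 CPM. PSME2, its partner, was at 151 and 159 CPM (adjusted p = 0.258).

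Genes of growth were expressed in both lines, and more of them lay within 2-fold than the 40.2% of all tested genes. Their shares stayed below the 79.7% of the core of 862. Among 32 genes of ribosome assembly and MYC targets, 23 (71.9%) did, 19 were called higher in 5TGM1 and 8 higher in 8226, where all tested genes divided 45.2% to 46.6%. NPM1, a nucleolar chaperone, averaged 1475 ± 145 CPM in 8226 and 3813 ± 78.5 CPM in 5TGM1. NCL (nucleolin) averaged 2151 ± 176 and 3532 ± 124 CPM. Among 44 cell cycle genes, 20 were higher in 5TGM1 and 19 in 8226, a division near that of all tested genes, with 68.2% within 2-fold. TOP2A, the topoisomerase of dividing cells, stood at 710.5, 739 and 639 CPM in 8226 and 647, 745 and 692 CPM in 5TGM1 and overlapped (log2 difference 0.00, adjusted p = 0.969). MKI67, the antigen of proliferating nuclei, stood at 197, 186 and 160.5 CPM in 8226 and 745, 877 and 775 CPM in 5TGM1 (log2 difference -2.14 ± 0.085), and CCNE1, the cyclin of entry into S phase, averaged 11.4 and 167 CPM. MCM7, a subunit of the replicative helicase, was instead 6.10-fold higher in 8226, at 867 against 142 CPM. Of 60 nuclear genes of the respiratory chain, 41 (68.3%) lay within 2-fold, 35 were higher in 5TGM1 and 16 in 8226, against 45.2% and 46.6% of all tested genes. Ribosomal protein genes, of which 65 of 76 stood in the core of 862, still held 18 members that differed 4-fold. They have many processed copies in both genomes, and their single values are uncertain.

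The 3 defining transcription factors of plasma cells were present in both lines, each at a higher level in 5TGM1. PRDM1, which silences the B cell program, stood at 99.9, 94.9 and 98 CPM in 8226 and 310.5, 348 and 313 CPM in 5TGM1 (log2 difference -1.73 ± 0.064, adjusted p = 8.6e-13). IRF4, on which myeloma cells depend for survival, stood at 385, 346 and 363 CPM in 8226 and 801, 861 and 825 CPM in 5TGM1 (2.27-fold, adjusted p = 8.3e-11). XBP1 stood at 848, 826 and 869 CPM in 8226 and 1675, 1759.6 and 1796 CPM in 5TGM1 (log2 difference -1.04 ± 0.061). None of the 3 overlapped between the lines, as was so for 91.9% of all tested genes. POU2AF1 (OCA-B), a coactivator of immunoglobulin transcription, had a wider gap, 5.06-fold, at 196, 186 and 186 CPM in 8226 and 951, 979 and 944 CPM in 5TGM1. ELL2, an elongation factor needed for the secreted form of antibody mRNA, averaged 97 ± 2.73 CPM in 8226 and 225 ± 10.4 CPM in 5TGM1. SDC1 (CD138), the surface proteoglycan by which plasma cells are identified, stood at 308, 282 and 346 CPM in 8226 and 454, 481 and 489 CPM in 5TGM1, a 1.52-fold difference. Of the 23 tested genes of the identity list, 9 were higher in 8226 and 13 in 5TGM1, against 46.6% and 45.2% of all tested genes. 13 of them (56.5%) differed 4-fold, against 39.4% of all tested genes, while 7 belonged to the core of 862. PRDM1, IRF4 and XBP1, the defining regulators of the labelled cell type, thus averaged 97.6 CPM or more in both lines.

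**Figure D3:**
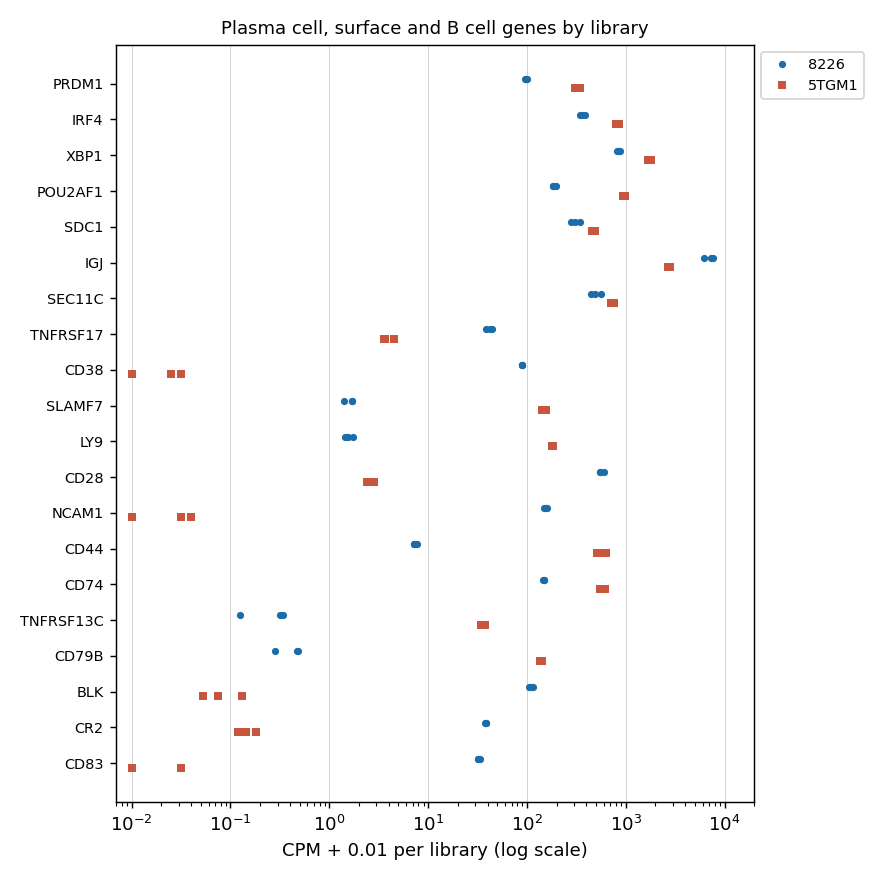
CPM + 0.01 in each library (log scale) for plasma cell, surface and B cell genes, with 8226 as circles and 5TGM1 as squares, 3 libraries each. PRDM1, IRF4, XBP1, POU2AF1 and SDC1 are high in both lines, while CD38, CD28, NCAM1, BLK, CR2 and CD83 are high in 8226 alone and SLAMF7, LY9, CD44, TNFRSF13C and CD79B in 5TGM1.

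Surface antigens that serve as targets of antibodies and cell therapies differed far more than the regulators. Of 25 tested genes, 12 were 4-fold higher in 8226 and 6 were 4-fold higher in 5TGM1 (72.0%, against 39.4% of all tested genes). CD38, the target of daratumumab, stood at 89, 88.4 and 89.7 CPM in 8226 and 0.0218, 0.0150 and 0 CPM in 5TGM1. The 5TGM1 libraries held 2 reads on Cd38 in all, so the ratio of 7062 (95% counting interval 1955 to 58323) has a wide interval (adjusted p = 1.8e-17). SLAMF7, the target of elotuzumab, showed the opposite at 1.39, 1.70 and 1.69 CPM in 8226 and 149, 158 and 144 CPM in 5TGM1, a 94.8-fold excess in 5TGM1 (adjusted p = 3.7e-17). TNFRSF17 (BCMA), the target of CAR T cells and bispecific antibodies, stood at 38.6, 42.8 and 44.2 CPM in 8226 and 4.49, 3.57 and 3.64 CPM in 5TGM1, 10.8-fold higher in 8226. TNFRSF13B (TACI), the sister receptor for APRIL and BAFF, was nearer in level at 60.3 ± 10.4 and 114 ± 2.87 CPM, and TNFRSF13C, the BAFF receptor of B cells, averaged 0.251 CPM in 8226 and 35.5 CPM in 5TGM1. GPRC5D, another target, was low throughout, at 0.775, 0.848 and 0.857 CPM in 8226 and 0 in the 5TGM1 libraries.

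Adhesion and costimulatory antigens of aberrant plasma cells followed the same split. NCAM1 (CD56), absent from normal plasma cells and present on many myelomas, stood at 155, 159 and 149.7 CPM in 8226 and 0, 0.0300 and 0.0217 CPM in 5TGM1, with 3 reads in all in 5TGM1. CD28, a costimulatory receptor that also signals survival in plasma cells, stood at 545, 598 and 555 CPM in 8226 and 2.38, 2.81 and 2.53 CPM in 5TGM1 (log2 difference 7.77 ± 0.091). The hyaluronan receptor CD44 went the other way at 7.79, 7.17 and 7.21 CPM in 8226 and 511, 612 and 626 CPM in 5TGM1, and so did LY9 (CD229) at 1.53, 1.75 and 1.44 CPM in 8226 and 182, 184 and 181 CPM in 5TGM1. No library of 1 line came near the other line for any of these 4, where 91.9% of all tested genes had no overlap. CD274 (PD-L1) averaged 4.74 CPM in 8226 and 117 CPM in 5TGM1. The complement regulators CD46 and CD55 were high in 8226, at 288 and 48.7 CPM, and at 0.841 and 0.192 CPM in 5TGM1. In mice, CD46 is known to be made mainly in the testis. CD47, the signal that inhibits phagocytosis, was within 2-fold at 222 ± 3.69 and 169.5 ± 2.28 CPM, and so was TFRC, the transferrin receptor, at 627 ± 28.6 and 703 ± 63.7 CPM.

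Remnants of the B cell program were found in both lines but in different genes. PAX5, the factor that holds B cell identity, stood under 2 CPM in every library (0.182, 0.180 and 0.304 CPM in 8226 and 0.872, 1.04 and 0.715 CPM in 5TGM1), and so did CIITA, the switch of MHC class II, at 1.91, 1.00 and 1.33 CPM in 8226 and 0.567, 0.390 and 0.433 CPM in 5TGM1. Of 27 tested B cell genes, 11 were 4-fold higher in 8226 and 8 were 4-fold higher in 5TGM1, against 22.7% and 16.6% of all tested genes, and none belonged to the core of 862. BLK, a Src kinase of B cells, stood at 111, 104 and 114 CPM in 8226 and 0.0654, 0.120 and 0.0433 CPM in 5TGM1. CR2 (CD21), the complement receptor, averaged 38.3 CPM in 8226 and 0.139 CPM in 5TGM1, and CD83 averaged 32.5 CPM in 8226 with 1 read in all in 5TGM1. CD79B, a signalling chain of the B cell receptor, was instead particular to 5TGM1 at 0.274, 0.463 and 0.470 CPM in 8226 and 143, 136 and 139 CPM in 5TGM1 (log2 difference -8.45 ± 0.12). Its partner CD79A stood at 3.28 ± 0.0779 CPM in 8226 and 0.0924 ± 0.0280 CPM in 5TGM1, so neither line held both chains above 5 CPM. The adaptor BLNK and the tetraspanin CD37 were 5.17-fold and 5.30-fold higher in 5TGM1. BTK was within 2-fold, at 54.8 ± 4.03 and 71 ± 0.572 CPM.

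Cereblon is the substrate receptor through which lenalidomide and pomalidomide direct IKZF1 and IKZF3 to degradation. CRBN stood at 33, 37.2 and 32.7 CPM in 8226 and 165, 165 and 166 CPM in 5TGM1, 4.82-fold higher in 5TGM1 (adjusted p = 6.1e-14). IKZF1 (Ikaros), which sustains IRF4 and MYC in myeloma, stood at 175, 164 and 165 CPM in 8226 and 221, 254 and 243 CPM in 5TGM1, a small gap without overlap (log2 difference -0.51). IKZF3 (Aiolos) stood at 22.7, 10.7 and 23.3 CPM in 8226 and 34, 35.6 and 27.5 CPM in 5TGM1 (log2 difference -0.78 ± 0.20, adjusted p = 0.0021). The second 8226 library was the lowest for IKZF3, and the DESeq2 test gave an adjusted p of 0.0511. GSPT1, a translation termination factor and neosubstrate of newer cereblon ligands, averaged 916 ± 23.2 CPM in 8226 and 424 ± 16.4 CPM in 5TGM1. CSNK1A1, the neosubstrate of lenalidomide in other blood cancers, averaged 151 ± 0.632 and 400.0 ± 25.1 CPM. CRBN was the single 4-fold difference to the side of 5TGM1 among the 13 tested genes, and 2 others, IKZF2 and IKZF4, were 4-fold higher in 8226 at under 5 CPM in either line.

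MAF and the genes known to rise with it set the lines apart at full scale. MAF, a basic leucine zipper factor, stood at 1753, 1569.9 and 1797 CPM in 8226 and had no read in the 5TGM1 libraries, which makes it at least 90248-fold higher in 8226 (against a floor of 3 counts over the group; adjusted p = 6e-17). ITGB7, an integrin beta chain known as a MAF target, stood at 3161, 2828 and 3492 CPM in 8226 and 1.35, 0.976 and 1.15 CPM in 5TGM1. CCR1, a chemokine receptor also known as a MAF target, stood at 303, 330.3 and 299 CPM in 8226 with no read in 5TGM1, at least 16439-fold higher. CX3CR1, the fractalkine receptor, averaged 844 ± 28 CPM in 8226 with 4 reads in all in 5TGM1. NUAK1, a kinase of the MAF class signature, averaged 33.1 ± 1.43 CPM against 0.0440 ± 0.000930 CPM. All of these had libraries that did not overlap, as did 91.9% of tested genes. CCND2, the cyclin D raised by MAF in myeloma, was present in both lines, at 965, 697 and 1070.1 CPM in 8226 and 275, 354 and 338 CPM in 5TGM1 (2.82-fold, adjusted p = 3.1e-08).

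**Figure D4:**
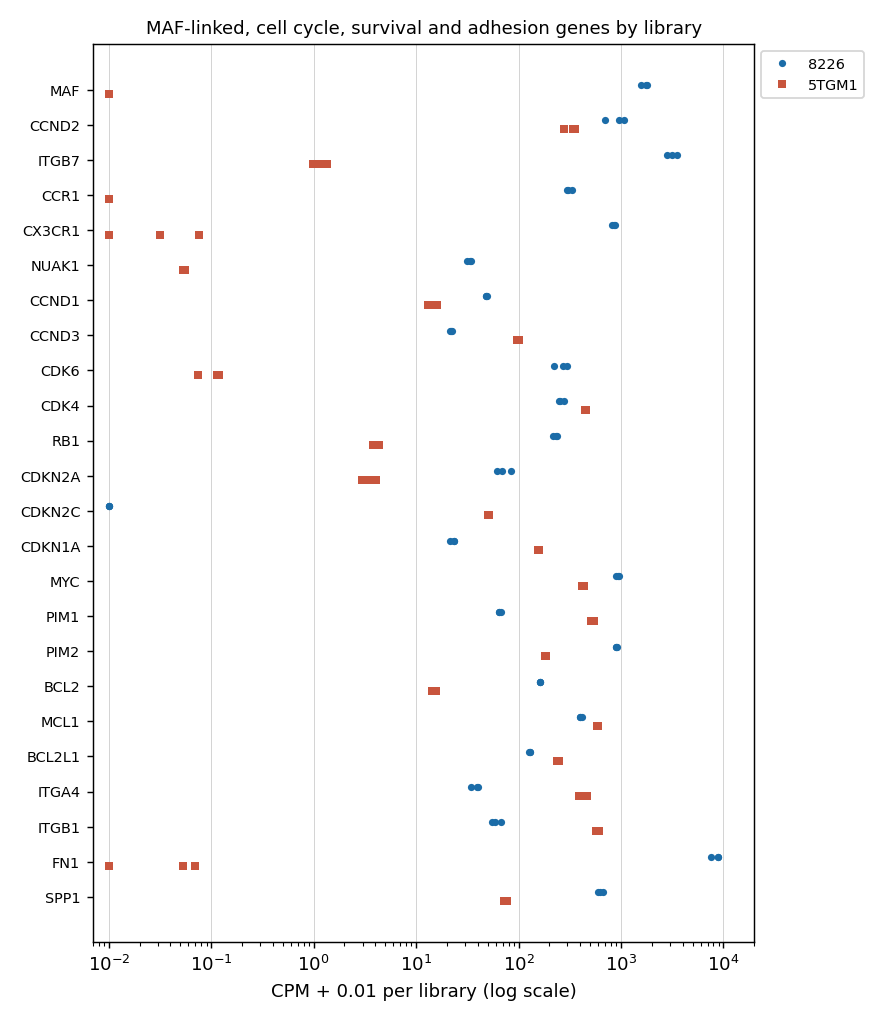
CPM + 0.01 in each library (log scale) for MAF-linked, cell cycle, survival and adhesion genes, with 8226 as circles and 5TGM1 as squares, 3 libraries each. MAF, CCR1, CX3CR1, ITGB7, CDK6 and FN1 reach from near 0 in 5TGM1 to over 200 CPM in 8226; CDKN2C shows the reverse, and MYC, CCND2, MCL1 and CDK4 lie close together.

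The G1 control genes took different settings in the lines. CCND1 averaged 48.3 ± 0.846 CPM in 8226 and 14.8 ± 1.57 CPM in 5TGM1, and CCND3 averaged 21.9 ± 0.385 and 98.2 ± 2.78 CPM, so that the fold between lines ran 3.26 to the side of 8226 for the first and 4.49 to the side of 5TGM1 for the second. CDK6, a partner of D cyclins, stood at 299, 221 and 274 CPM in 8226 and 0.109, 0.105 and 0.0650 CPM in 5TGM1 (log2 difference 11.41 ± 0.19), while its sister CDK4 averaged 261 ± 15 and 451 ± 4.60 CPM. RB1, the pocket protein these kinases inactivate, stood at 231, 236 and 217 CPM in 8226 and 4.32, 4.02 and 3.79 CPM in 5TGM1, 56.4-fold higher in 8226. CDKN2C (p18), an inhibitor of CDK4 and CDK6, had no read in the 8226 libraries and stood at 50.4, 51 and 50.2 CPM in 5TGM1, at least 2003-fold higher there. CDKN2A, whose locus encodes p16 and ARF, averaged 72 ± 11.8 CPM in 8226 and 3.44 ± 0.537 CPM in 5TGM1. CDKN1A (p21), an inhibitor of cyclin-dependent kinases, stood at 23.3, 21.5 and 23.7 CPM in 8226 and 155, 156 and 159 CPM in 5TGM1, 6.87-fold higher in 5TGM1. MYC stood at 943, 892 and 952 CPM in 8226 and 432, 438 and 420.0 CPM in 5TGM1, 2.16-fold higher in 8226 with no overlap (adjusted p = 8e-11). Other genes of myeloma lesions also differed: KDM6A, a histone demethylase, averaged 4.06 and 46 CPM, TRAF3, a brake on NF-kB, averaged 7.83 and 54.2 CPM, and FGFR3 averaged 1.12 and 0.0123 CPM. FAM46C (TENT5C), a poly(A) polymerase that favours antibody output, averaged 449 ± 68.2 CPM in 8226 and 215 ± 10.4 CPM in 5TGM1. Of 27 tested myeloma oncogenes and tumour suppressors, 9 were 4-fold higher in 8226 and 6 in 5TGM1 (55.6% together, against 39.4%).

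The PIM kinases, which support survival and translation in myeloma, were used in opposite proportion. PIM1 stood at 64, 65 and 67.6 CPM in 8226 and 509, 550.3 and 539.7 CPM in 5TGM1, 8.13-fold higher in 5TGM1. PIM2 stood at 892, 891 and 908 CPM in 8226 and 182, 182 and 186 CPM in 5TGM1, 4.90-fold higher in 8226. PIM3 did not pass the test, with means of 65.5 and 61.1 CPM (adjusted p = 0.201), but passed without the second 8226 library (log2 difference 0.17, adjusted p = 0.0227).

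Among guardians of survival, MCL1, on which most myelomas depend, was the nearest to even. It stood at 402, 421 and 396 CPM in 8226 and 579.5, 590.0 and 586 CPM in 5TGM1, a 1.44-fold difference without overlap. BCL2L1 (BCL-XL) averaged 129 ± 1.78 CPM in 8226 and 242 ± 5.79 CPM in 5TGM1. BCL2, the target of venetoclax, stood at 163, 161 and 161 CPM in 8226 and 14.6, 15.8 and 14.3 CPM in 5TGM1, 10.8-fold higher in 8226, and BCL2L11 (BIM), the activator that it binds, stood at 170.4, 177 and 164 CPM in 8226 and 16.8, 18.2 and 17.3 CPM in 5TGM1, 9.75-fold higher in 8226. The pair was thus high together in 8226 and low together in 5TGM1. PMAIP1 (NOXA) and BBC3 (PUMA), other death-promoting members of the family, had the reverse order, at 38.8 against 326 CPM and at 4.03 against 33.4 CPM. BIK, also death-promoting, lay with BCL2L11 to the side of 8226, at 10.4 CPM in 8226 and 0.0930 CPM in 5TGM1. The effector BAX stood at 25.9, 25.7 and 33.6 CPM in 8226 and 183, 164 and 165 CPM in 5TGM1, 6.03-fold higher in 5TGM1. Of 27 tested genes of the family and its death effectors, 8 were called higher in 8226 and 16 higher in 5TGM1. Over all tested genes these shares were 46.6% and 45.2%. Of the called members, 4 and 7 differed 4-fold, and this 4-fold share (40.7%) was near the 39.4% of all tested genes.

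Integrins divided between the lines by chain. VLA-4, which anchors myeloma cells to VCAM-1 and fibronectin in marrow, pairs ITGA4 with ITGB1, and both were higher in 5TGM1. ITGA4 stood at 39.6, 40.03 and 34.4 CPM in 8226 and 411, 464 and 390.1 CPM in 5TGM1 (11.1-fold), and ITGB1 stood at 59.3, 67.3 and 54.9 CPM in 8226 and 577, 609 and 582 CPM in 5TGM1 (9.73-fold). ITGA4 also pairs with ITGB7, whose reads lay almost wholly in 8226, as given above. The alpha chain of LFA-1, ITGAL, averaged 10.3 CPM in 8226 and 328 CPM in 5TGM1, while its ligand ICAM1 averaged 253 and 76.4 CPM. ITGA2B, the platelet integrin chain, averaged 15.3 CPM in 5TGM1 with 1 read in all in 8226. Of 33 tested integrin and adhesion genes, 11 were 4-fold higher in 8226 and 13 in 5TGM1, against 22.7% and 16.6% of all tested genes, and the median log2 difference of 0.16 was near that of all genes.

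Chemokine and receptor genes lay mostly to the side of 8226. Of 17 tested genes, 10 were 4-fold higher in 8226 and 4 in 5TGM1 (82.4% together, against 39.4% of all tested genes), and none lay within 2-fold. The median log2 difference was 6.90, or 4.10 with the 7 genes that had no read in 1 line set at their bound. The median member was CCR6, at 0.324 CPM in 8226 with no read in 5TGM1, so the median rests on a gene of low level. Of the 19 matched genes, 7 averaged 10 CPM or more in 8226 and 2 did in 5TGM1. CXCR4, the receptor that homes plasma cells to marrow, was shared by both lines at 82.1, 81 and 94.2 CPM in 8226 and 35.2, 37.4 and 39.1 CPM in 5TGM1 (2.30-fold). CXCL12, its ligand, normally made by stromal cells, stood at 181, 184 and 173 CPM in 8226 and had no read in 5TGM1. CCR2 stood at 43.7, 45.6 and 43.1 CPM in 8226 with 2 reads in all in 5TGM1, and CXCL16 averaged 21.5 CPM in 8226 with none in 5TGM1. For CXCL16 the fitted log2 difference, which is no bound where a line has no read, was 12.96, and 5.60 when reads were counted without regard to strand. CCL3 (MIP-1 alpha), which promotes osteoclasts, was on the other side at 0.114, 0.103 and 0.0829 CPM in 8226 and 18.8, 17.8 and 18.9 CPM in 5TGM1.

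Of 20 tested genes for secreted factors of the marrow niche, 13 were 4-fold higher in 8226 and 3 in 5TGM1 (80% together, against 39.4% of all tested genes). FN1 (fibronectin) was among the highest transcripts of 8226, at 8771, 8861 and 7629 CPM, with 6 reads in all in 5TGM1. SPP1 (osteopontin) was present in both lines, at 592, 672 and 625 CPM in 8226 and 77.7, 72.5 and 72.6 CPM in 5TGM1 (8.48-fold). HGF averaged 16.7 ± 0.332 CPM in 8226 and ANGPT1, the TIE2 ligand, averaged 14.7 ± 0.735 CPM, each with 2 reads in all in 5TGM1. VEGFA was within 2-fold at 154 ± 14.7 and 86.5 ± 0.827 CPM. IL10 went the other way, at 2.71, 2.88 and 3.23 CPM in 8226 and 81.8, 75.5 and 80.2 CPM in 5TGM1 (27-fold). DKK1, the WNT inhibitor linked to bone lesions, had 0 reads in 8226 and 1 in 5TGM1 and was not tested.

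Receptors and kinases of cytokine signalling differed in part. IL6ST (gp130), the signalling chain for interleukin-6, stood at 272, 250.4 and 253 CPM in 8226 and 92, 106 and 96.6 CPM in 5TGM1 (2.63-fold). STAT3, which it activates, was even at 92.3 ± 3.84 and 95.1 ± 4.78 CPM (adjusted p = 0.514). The Janus kinases differed by member: JAK1 averaged 106 CPM in 8226 and 4.82 CPM in 5TGM1, whereas JAK2 averaged 7.69 and 60.3 CPM and JAK3 1.21 and 60.3 CPM. IL2RG, the common gamma chain that signals through JAK3, was with JAK3 to the side of 5TGM1 at 5.81 ± 0.224 and 69.8 ± 2.20 CPM. The insulin-like growth factor receptor IGF1R stood at 71.9, 60.8 and 72.1 CPM in 8226 and 119, 143 and 133 CPM in 5TGM1, and the clearance receptor IGF2R at 409, 396 and 363 CPM in 8226 and 82.6, 100.5 and 91.8 CPM in 5TGM1. INSR, the insulin receptor, averaged 49.8 CPM in 8226 with 11 reads in all in 5TGM1. IL5RA was 1 of the highest transcripts particular to 5TGM1, at 0.547, 0.822 and 0.774 CPM in 8226 and 397, 413 and 383 CPM in 5TGM1. Of 31 tested genes, 11 were 4-fold higher in 8226 and 4 in 5TGM1 (48.4% together, against 39.4% of all tested genes), and 35.5% lay within 2-fold, near the 40.2% of all.

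Interferon-linked genes were mixed. Of 46 tested genes, 27 were called higher in 8226 and 15 in 5TGM1, where all tested genes divided 46.6% to 45.2%. Of these, 16 and 6 differed 4-fold (47.8% together, against 39.4%). ADAR, the RNA editor, stood at 658, 579.5 and 634 CPM in 8226 and 87.9, 88.7 and 84.3 CPM in 5TGM1 (7.17-fold). IRF8, a factor of earlier B cells and myeloid cells, averaged 56.6 CPM in 8226 and 0.0636 CPM in 5TGM1, and OAS2 averaged 31.4 and 0.268 CPM. GBP4 showed the opposite at 0.802 and 51.3 CPM, but guanylate-binding proteins form a family with unequal membership in the 2 species. For antigen presentation, B2M stood at 2249, 2589 and 2452 CPM in 8226 and 3331, 3198 and 3186 CPM in 5TGM1, within 2-fold, and TAP1, the peptide transporter, at 61.6, 56.3 and 67.4 CPM in 8226 and 197, 211 and 213 CPM in 5TGM1 (3.35-fold). CD74, the invariant chain of MHC class II, averaged 148 ± 1.88 CPM in 8226 and 580.5 ± 34.2 CPM in 5TGM1, with CIITA low in both as given above.

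Most genes of the integrated stress response and serine synthesis were higher in 5TGM1, by moderate amounts. ATF4, whose translation rises when eIF2 alpha is phosphorylated, directs amino acid synthesis and transport. Of 40 tested genes, 26 were called higher in 5TGM1 and 10 higher in 8226, with a median log2 difference of -0.81, against 45.2% and 46.6% of all tested genes. The members that differed 4-fold, 8 higher in 5TGM1 and 5 in 8226, made up 32.5% of the list, under the 39.4% of all tested genes. ATF4 itself stood at 366, 409 and 374 CPM in 8226 and 816, 784 and 811 CPM in 5TGM1 (2.10-fold). CHAC1, a glutathione-degrading target of the pathway, stood at 4.63, 3.96 and 4.84 CPM in 8226 and 135, 131 and 131 CPM in 5TGM1 (29.7-fold, adjusted p = 1.5e-16). PPP1R15A (GADD34), the phosphatase subunit that ends the response, averaged 9.27 ± 0.921 and 146 ± 4.47 CPM, and DDIT3 (CHOP) averaged 10.5 ± 0.812 and 37.2 ± 2.56 CPM. Other members of the list went the other way. ATF3 averaged 13.4 CPM in 8226 and 0.210 CPM in 5TGM1, and DDIT4 averaged 253 and 73.3 CPM. In serine synthesis, PHGDH, the first enzyme, stood at 127, 126 and 129.7 CPM in 8226 and 327, 335 and 352 CPM in 5TGM1 (2.65-fold), and PSAT1, the second, stood at 156, 167 and 164 CPM in 8226 and 883, 899.6 and 878 CPM in 5TGM1 (5.46-fold). SHMT2, which moves the carbon unit of serine to folate in mitochondria, averaged 387 and 1159 CPM. Transsulfuration was split between its enzymes. CBS, the first, averaged 216 CPM in 8226 and 0.0800 CPM in 5TGM1, and CTH, the second, averaged 9.54 and 235 CPM.

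Of 27 tested genes of sterol and fatty acid synthesis, 20 were called higher in 8226 and 3 higher in 5TGM1, where all tested genes divided 46.6% to 45.2%, and the median log2 difference was 1.21. The 7 members that differed 4-fold were all higher in 8226, but their share of the list (25.9%) was below the 39.4% of all tested genes. ELOVL6, which elongates saturated fatty acids, averaged 61.8 ± 4.14 CPM in 8226 with no read in 5TGM1. INSIG1, the sterol-sensing retention protein, averaged 716 and 219 CPM.

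Among 36 tested glycolytic and hypoxia-linked genes, 12 were 4-fold higher in 8226 and 3 in 5TGM1, and the sum (41.7%) was near the 39.4% of all tested genes. PKM2 averaged 4582 ± 73.8 CPM in 8226 and 2900.3 ± 69.6 CPM in 5TGM1, and LDHA averaged 1886 ± 179 and 1627 ± 29 CPM, both within 2-fold. LDHB, the lactate dehydrogenase chain of oxidative tissues, stood at 1240.0, 1363 and 1253 CPM in 8226 and 1.18, 0.961 and 1.02 CPM in 5TGM1. EPAS1 (HIF-2 alpha) stood at 117, 117 and 115 CPM in 8226 with 1 read in all in 5TGM1. For ENO1, which every glycolytic cell uses, the 5TGM1 libraries held 12 reads in all against 3776 CPM in 8226. Of 23 heat shock genes, 13 were called higher in 8226 and 5 in 5TGM1, against 46.6% and 45.2% of all tested genes, and 26.1% differed 4-fold. The inducible cytosolic HSP90AA1 averaged 2402 ± 132 CPM in 8226 and 558 ± 21.8 CPM in 5TGM1, while the constitutive HSP90AB1 averaged 4048 ± 179 and 4428 ± 155 CPM (adjusted p = 0.0756). HSP90AB1 passed the threshold without the second 8226 library (adjusted p = 0.0254) and without the first 5TGM1 library (adjusted p = 0.0473). HSPB1 averaged 169 ± 31.8 CPM in 8226 with no read in 5TGM1. Of 27 genes of NRF2 and redox defence, 20 were called higher in 8226 and 4 in 5TGM1, with a median log2 difference of 0.48; 3 of them (11.1%) differed 4-fold, fewer than the 39.4% of all tested genes.

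**Figure D5:**
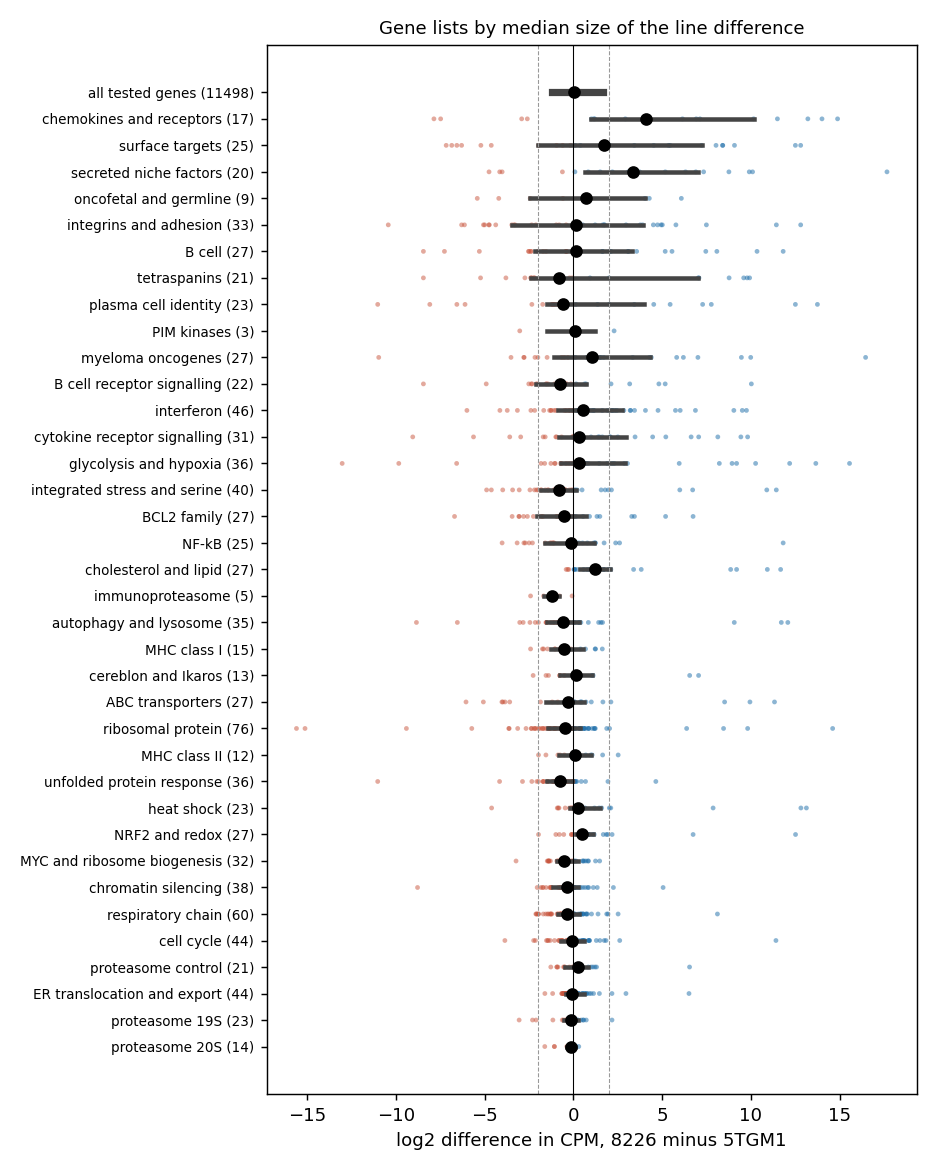
Log2 difference in CPM (8226 minus 5TGM1) of each tested gene (dots, blue above 0 and red below) in each list, with the list median (black circle) and quartiles (bar), and the number of tested genes in parentheses; genes with no read in 1 line are drawn at their bound, and dashed lines mark 4-fold. Lists run from the 20S proteasome at the bottom, where no gene passes 4-fold, to chemokines and receptors at the top, with all 11498 tested genes above them.

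Most markers of T and NK, erythroid and platelet, stromal and endothelial, and myeloid cells averaged under 1 CPM in both lines (15 of 21, 10 of 13, 15 of 21 and 12 of 19), but only 2 of 10 epithelial markers did. T and NK cell markers summed to 18.1 to 18.4 CPM per 8226 library and 6.16 to 6.30 CPM per 5TGM1 library over 21 genes, none of which reached 10 CPM. CD3E stood at 1.53, 1.62 and 1.19 CPM in 8226 and at 0 in 5TGM1. Erythroid and platelet markers summed to 7.07 to 8.73 and 20.5 to 22.9 CPM over 13 genes, most of the latter from ITGA2B. The 21 stromal and endothelial markers summed to 182.5 to 192.0 CPM in 8226, nearly all from CXCL12, and to 14.1 to 14.95 CPM in 5TGM1; COL1A1 averaged 1.49 and 2.07 CPM. For myeloid cells, 19 markers summed to 683 to 718 and 651 to 693 CPM, of which CYBB, an oxidase subunit also expressed by B cells, gave 631 ± 15.3 and 359.9 ± 18.3 CPM. CD68 averaged 49.1 ± 3.09 and 285 ± 4.40 CPM and MRC1, the mannose receptor of macrophages, 2.37 and 20.7 CPM, while CD14, the monocyte coreceptor, stood at 0.0989 and 0.0512 CPM. Epithelial markers summed to 402 to 419.7 and 366 to 369 CPM over 10 genes. EPCAM stood at 164, 188 and 155 CPM in 8226 and 337, 332 and 333 CPM in 5TGM1, and KRT18 averaged 136 and 14.8 CPM. ESRP1, a splicing regulator of epithelia, averaged 68.1 CPM in 8226 and 1.54 CPM in 5TGM1, MUC1, a membrane mucin, 28.1 and 0.652 CPM, and the factor ELF3 2.27 and 15.8 CPM. KRT5 and KRT19 were the 2 under 1 CPM in both lines. The markers EOMES, NKG7, GP1BA, CLDN5 and KDR had no read in either line. The part of other cells in these sums was not tested.

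At the far ends, 844 genes (7.34% of those tested) were particular to 8226, with at least 10 CPM in each of its libraries and under 1 CPM in each 5TGM1 library, and 289 (2.51%) were particular to 5TGM1 by the mirrored rule. These classes were chosen on the values and describe them. Of the 844, 151 had no read in 5TGM1, and of the 289, 67 had none in 8226. After FN1, ENO1 and MAF, the highest of the 8226 class included AHNAK, a large scaffold protein (1489.8 CPM), APP, the amyloid precursor protein (1009 CPM), IGFBP3, a carrier of insulin-like growth factors (867 CPM), and ASS1, argininosuccinate synthetase (642 CPM). IGFBP3 stood at 852, 919 and 830.1 CPM and had no read in 5TGM1. The highest of the 5TGM1 class included CSN3, kappa-casein, at 754, 705 and 672 CPM, and CP, ceruloplasmin, at 532, 550.0 and 525 CPM, each with no read in 8226. ALPL, tissue-nonspecific alkaline phosphatase, averaged 0.0504 ± 0.0443 CPM in 8226 and 342 ± 10.2 CPM in 5TGM1. GNAQ, a G protein subunit, averaged 407 CPM in 5TGM1 with 1 read in all in 8226.

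Part of these classes coincided with limits of counting. Of the 289 genes particular to 5TGM1, 37 (12.8%) also stood in a read-through entry of the human table, an annotated gene that spans 2 neighbours, against 141 of all tested genes (1.23%), 2 of the 844 particular to 8226 (0.237%) and 5 of the core of 862 (0.580%). TXNDC5, EIF4A1, NME2 and DDX39B were among the 37. EIF4A1, an initiation factor that dividing cells need, had no read in 8226 and stood at 1127, 1132 and 1166 CPM in 5TGM1. EIF3C, also an initiation factor gene, had no read in 8226 and averaged 764 CPM in 5TGM1. In the other direction, RPL26, DEK and S100A11 had no read in 5TGM1 and averaged 471, 895 and 753 CPM in 8226. UBB, a polyubiquitin gene, averaged 468 and 4.97 CPM. Reads with more than 1 mapping place were left out of the gene counts. As a share of all reads, with those outside genes included, they made up 10.4% to 10.9% in 8226 and 15.3% to 15.9% in 5TGM1. The part that this has in each value was not tested. Genes with a named human pseudogene were taken as those for which another human symbol adds P and a number to theirs. They made up 10.7% of the 844 genes particular to 8226 and 9.69% of the 289 particular to 5TGM1, below the 14.2% of all tested genes. In the core of 862 they made up 42.5%. Mouse pseudogenes were not examined, so these shares say nothing of reads lost in 5TGM1. BMI1, a Polycomb subunit that averaged 0.919 CPM in 8226 and 408 CPM in 5TGM1, also stands in a human read-through entry, COMMD3-BMI1.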

How the data were processed

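RNA was sequenced from 3 naive libraries of each line, taken to groups and replicate numbers from the sample titles. The authors deposited whole-number read counts per gene symbol for each library, not normalized, in STAR's layout. The submitters' processing notes name STAR and, with no link to files, the builds GRCh37, GRCm38, hg19 and mm10. Aligner version and annotation release are not given in the sources used here. Column 4, the strand that held nearly all stranded reads (1.56% to 1.90% lay in the other), was used. The first 4 rows, totals outside genes, were removed. Symbols were matched with case ignored; unmatched genes held 6.93% to 7.19% of gene reads.

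Counts were fitted in R 4.3.3 with edgeR 4.0.16 (filterByExpr, TMM factors 0.988 to 1.01, quasi-likelihood F test, Benjamini-Hochberg adjustment over 11498 genes, p below 0.05). CPM use TMM-scaled totals of matched genes, and errors are SDs over 3 libraries or SEs from the F statistic. On simulated counts with 200 changed genes of 11292, the test recovered 200 and made 17 false calls. Its performance where most genes differ, as in these libraries (91.8% of tested genes passed), was not tested. Alternatives included DESeq2 1.42.0. The comparison, its gene lists and its tests were chosen with earlier results of these data known, so no list count is independent support. Named were key genes, up to 4 list members with the widest 4-fold differences each way at 10 CPM or more and up to 4 with the highest ranks, the 15 highest genes of each particular class and of mean rank, and other cell types' markers at 10 CPM or more; further list members were named after their values were seen, and a few genes that these rules name are not reported here. Read-through entries were taken from symbols of the human table.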

Additional observations from a re-analysis of the deposited data

How the results depend on the processing

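The counts of genes 4-fold higher in 8226 (2614) and in 5TGM1 (1911) stayed within 1.5 times under library size alone (2610 and 1916), DESeq2 (3024 and 2256), no low-count filter (3114 and 2453), counts without regard to strand (2666 and 1964) and totals over all genes (2617 and 1909). At 2-fold they were 3652 and 3219. Leaving out each library in turn gave 2645 to 2685 and 1923 to 1984, 865 to 877 genes high in both lines, 845 to 863 particular to 8226, 292 to 298 particular to 5TGM1, and a median rho of 0.777 to 0.778. At 20 CPM or more in the high line, 593 and 192 genes were particular to 8226 and 5TGM1. The top 5% held 421 genes high in both lines and the top 20% held 1959. Among genes at 1 CPM or more in either line, the median rho was 0.6366. Alternatives added after the data had been seen were the match extended by 357 human synonyms (2660 and 1974 genes at 4-fold) and the removal of genes in read-through entries (842 and 252 particular genes). Offsets by gene length and synonym matching for both species were not run, since no mouse reference was used here. Single genes named here were refitted under library size alone, DESeq2, no low-count filter, counts without regard to strand and totals over all genes. They were also refitted with the replicate number as a block and with each library left out in turn. Under these fits, 2240 values kept direction and side of the threshold, 8 newly passed it, 8 no longer passed it and 0 reversed. Depth limits what can be said of genes under about 0.1 CPM.

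The deviations of same-numbered libraries from their group means correlated at -0.211, -0.0527 and 0.182. Pairs with unlike numbers ran from -0.155 to 0.296. Deviations from a mean of 3 libraries are tied to each other, so these values cannot show whether libraries of the 2 lines shared a batch. A fit with the replicate number as a block gave 2613 genes 4-fold higher in 8226 and 1911 higher in 5TGM1.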

Other observations

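Several genes of interest carry different symbols in the 2 species and so fell outside the matched table. Their levels, on the same scale and with no test, are given for 16 pairs chosen after the data had been seen, of which the following bear on the report. The interleukin-6 receptor alpha chain (IL6R, Il6ra), the partner of IL6ST, averaged 116 ± 5.75 CPM in 8226 and 18.1 ± 1.01 CPM in 5TGM1 (SD, n = 3).

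Among B cell genes, SPI1 (Sfpi1), which encodes PU.1, averaged 32.0 ± 2.63 CPM in 8226 and 59.5 ± 0.274 CPM in 5TGM1, and FCER2 (Fcer2a), which encodes CD23, averaged 38.9 ± 0.834 and 0.490 ± 0.142 CPM. The lysosomal protease cathepsin L (CTSL1, Ctsl) averaged 0.0263 ± 0.0257 and 147 ± 7.35 CPM. Beta-tubulin (TUBB, Tubb5) stood at 1993 ± 85.2 and 1991 ± 50.2 CPM, and ferritin light chain (FTL, Ftl1) at 2986 ± 71.9 and 1113 ± 16.4 CPM.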
